A study of Mus musculus with 22 samples.

Results

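The comparison described here is that of VC- mice at day 7 against VC- mice at day 2 of DSS challenge, made on 7 of the 22 arrays of the study and across 9097 genes. DSS, dextran sodium sulfate, was given at 2.5% in the drinking water, and it injures the colonic epithelium so that bacteria meet the tissue beneath it and colitis follows. VC- mice are PPAR γ fl/fl mice without Villin Cre, so they carry the floxed alleles of the nuclear receptor PPAR γ and keep the gene. The VC+ mice carry the same alleles and a Cre recombinase that the Villin promoter drives in intestinal epithelial cells, where it deletes PPAR γ. The VC- groups hold 3 arrays at day 0, before DSS, 3 arrays at day 2 and 4 arrays at day 7, and the VC+ groups hold 3, 5 and 4. Day 2 precedes overt colitis in this model and day 7 falls within it, so the contrast asks which transcripts changed between them. The labels do not give the strain, and the study's methods describe a mixed FVB/C57BL/6 line and a C57BL/6 line, of which the former has the numbers of mice that the labels state. Nor do the labels give the age of the mice or state whether each array is a separate animal, so each p-value reflects array-to-array spread only, which may be technical. That spread was estimated for each gene over all 22 arrays in 6 groups. For VC- day 7, the least uniform group, it can therefore be too small.

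RNA came from homogenized colonic tissue, labelled colonic mucosa, and each value is a log2 GC-RMA signal on an Affymetrix mouse array, where a step of 1 is a doubling. In such tissue fewer cells of a type and less RNA per cell cannot be told apart. Epithelial markers were bright, as Vil1, an actin-bundling protein of the brush border, read 12.20 to 12.60 at day 2, and Muc2, the secreted mucin of goblet cells, read 15.38 to 15.59. The muscle myosin Myh11 read 12.53 to 12.64 at day 2, so the samples held muscle RNA beside that of the epithelium.

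Several arrays stood apart. VC- day 7 was the least uniform group of the 6, with a median SD per gene of 0.60 against 0.37 at VC- day 2 and 0.35 at VC+ day 7, and without its replicate 2 the median SD was 0.37. On that replicate Vil1 read 8.46 and Muc2 12.83, whereas the other 3 day 7 arrays gave 12.26 to 12.85 and 15.59 to 15.64. The same array had 14.74 for Prss2, a pancreatic trypsinogen, which the other day 7 arrays and all day 2 arrays read at 3.27 to 4.06. Xist, a transcript of female cells, was at 11.59 and 11.58 on VC- day 2 replicates 2 and 3 and at 2.03 to 2.07 on the other 5 arrays. Hoxb13, a homeobox gene of the distal colon, read 9.62 on VC- day 7 replicate 4 and 2.86 to 3.81 on the other 6 arrays. Sex and day could thus be told apart only through VC- day 2 replicate 1 and the other groups of the fit, and the part of these properties in the results below was not tested beyond the fits given with them. The VC- day 0 arrays differed from those of day 2 too. Their Hoxb13 read 7.29, 9.13 and 9.67, replicate 3 had 13.77 for Prss2, and Xist was at 11.45 on replicate 2 only. Day 0 and day 2 values thus differ in more than DSS, and the part of these properties in them was not tested.

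Between day 2 and day 7 of DSS, 314 of 9097 genes rose (3.45%) and 196 fell (2.15%) in VC- mice by limma at an adjusted p of 0.05, which is 5.61% in either direction. Transcripts of neutrophil attraction, of the interleukin-6 circuit, of the acute phase response and of matrix-cutting enzymes were among the largest rises. The peroxisomal thiolase Acaa1b had the largest fall, and the other large falls belonged to several functions. Of the risers, 137 changed by more than 2 on the log2 scale and 38 by more than 4, and of the fallers 24 and 5 changed as much downward. All day 7 arrays lay above all day 2 arrays for 599 genes (6.58%), 256 of them risers, and below them for 701 genes (7.71%), 174 of them fallers. The median change of the risers was 1.85 and that of the fallers was -1.19, beside -0.07 over all genes tested. For 297 of the 314 risers the day 2 mean lay within 1 log2 unit of the day 0 mean, which was also true of 178 of the 196 fallers. The remaining 18 fallers had a day 2 mean that was more than 1 above the day 0 mean.

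These counts depended on single arrays and on the arrays that shared the fit. They were 106 and 47 without VC- day 7 replicate 2, 122 and 62 without replicate 4, and 1191 and 930 without replicate 1. Leaving out VC- day 2 replicate 3 gave 39 and 11, leaving out replicate 2 gave 57 and 14, and leaving out replicate 1 gave 553 and 316. When the fit held only the 7 arrays compared, no gene passed, with 0.089 as the lowest adjusted p. In that fit 1034 genes had an unadjusted p under 0.05 (2654, 29.2%, in the fit of all 22), and all 510 called genes kept their sign. In all, 36 risers and 3 fallers passed whichever of the 7 arrays was left out, and the 3 fallers were Acaa1b, Slc16a9 and Fabp1. With Xist as a covariate the counts were 44 and 16, and 13 of the 15 largest rises and 4 of the 15 largest falls passed. With Hoxb13 as a covariate they were 180 and 100. In the bar plot of the fits the length of the bars shows these swings.

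**Figure D1:**
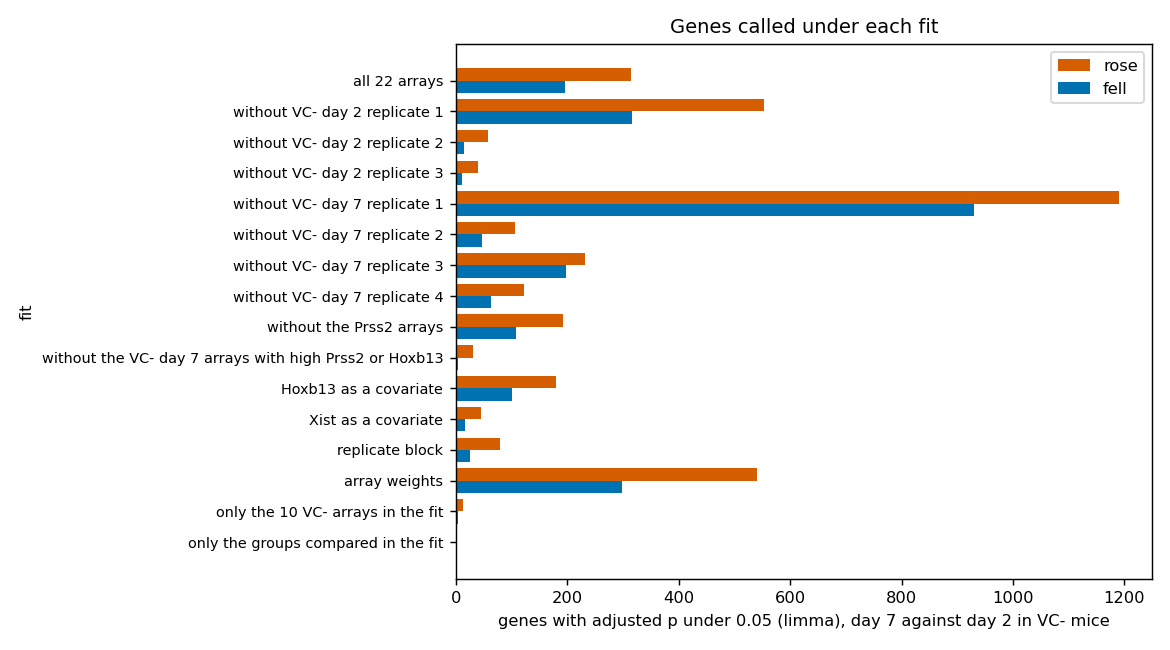
Number of genes with an adjusted p under 0.05 (limma) for day 7 against day 2 in VC- mice, as 1 pair of bars for each fit, with rises in orange and falls in blue. The fit of all 22 arrays called 314 and 196 genes, the fit without VC- day 7 replicate 1 called 1191 and 930, and the fit of only the 7 arrays compared called none.

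Inflamed colon recruits neutrophils through CXC chemokines, and injured epithelium and stroma answer interleukin-6 and interleukin-1 through STAT3 and NF-kB, with C/EBP and AP-1 factors acting on many of the same acute phase and protease genes. The 250 bases before the start site of 6 of the largest rises and of the falls Fabp1 and Acaa1b are printed here. The 6 rises were chosen because they hold the C/EBP letters, and the 2 falls because they are members of the PPAR list that were high at day 2 only. Sequences are from RefSeq in GRCm38.p6, written on the strand of the gene from 5′ to 3′, and capitals mark matches on either strand to the C/EBP letters TTGCNNAA or the AP-1 letters TGANTCA.
S100a9, chr3:90695722-90695971, minus strand: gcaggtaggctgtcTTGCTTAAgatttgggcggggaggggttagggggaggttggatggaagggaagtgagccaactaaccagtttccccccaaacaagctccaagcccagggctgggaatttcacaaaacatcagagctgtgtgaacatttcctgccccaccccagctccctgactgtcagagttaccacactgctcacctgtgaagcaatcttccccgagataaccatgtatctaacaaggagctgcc
Il6, chr5:30012864-30013113, plus strand: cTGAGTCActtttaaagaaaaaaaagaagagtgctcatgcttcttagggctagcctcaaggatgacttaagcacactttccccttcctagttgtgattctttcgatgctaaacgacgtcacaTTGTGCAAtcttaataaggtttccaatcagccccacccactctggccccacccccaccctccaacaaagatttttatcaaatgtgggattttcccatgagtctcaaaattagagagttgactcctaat
Lcn2, chr2:32387740-32387989, minus strand: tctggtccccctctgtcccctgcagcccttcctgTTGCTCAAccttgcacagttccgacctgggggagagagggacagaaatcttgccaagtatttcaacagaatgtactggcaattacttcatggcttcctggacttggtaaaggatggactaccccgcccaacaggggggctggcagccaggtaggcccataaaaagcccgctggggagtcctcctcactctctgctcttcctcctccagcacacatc
Saa3, chr7:46715677-46715926, minus strand: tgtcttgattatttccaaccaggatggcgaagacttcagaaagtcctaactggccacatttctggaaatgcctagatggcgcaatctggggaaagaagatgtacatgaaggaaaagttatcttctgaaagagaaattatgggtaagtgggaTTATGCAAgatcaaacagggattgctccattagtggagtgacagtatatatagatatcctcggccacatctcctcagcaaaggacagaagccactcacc
Mmp3, chr9:7445572-7445821, plus strand: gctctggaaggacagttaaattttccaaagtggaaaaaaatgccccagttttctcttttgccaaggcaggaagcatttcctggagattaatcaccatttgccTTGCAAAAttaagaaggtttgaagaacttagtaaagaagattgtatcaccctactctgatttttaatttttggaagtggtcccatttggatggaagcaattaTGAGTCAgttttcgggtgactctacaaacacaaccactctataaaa
Mmp10, chr9:7502092-7502341, plus strand: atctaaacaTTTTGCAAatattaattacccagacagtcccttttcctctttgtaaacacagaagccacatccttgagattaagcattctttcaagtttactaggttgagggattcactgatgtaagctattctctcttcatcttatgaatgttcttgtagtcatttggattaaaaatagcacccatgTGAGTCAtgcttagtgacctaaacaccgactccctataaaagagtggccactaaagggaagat
Fabp1, chr6:71199629-71199878, plus strand: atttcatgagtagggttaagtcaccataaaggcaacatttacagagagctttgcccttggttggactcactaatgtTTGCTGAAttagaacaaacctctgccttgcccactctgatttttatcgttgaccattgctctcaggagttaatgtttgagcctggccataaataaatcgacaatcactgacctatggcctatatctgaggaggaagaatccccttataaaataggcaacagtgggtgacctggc
Acaa1b, chr9:119157094-119157343, minus strand: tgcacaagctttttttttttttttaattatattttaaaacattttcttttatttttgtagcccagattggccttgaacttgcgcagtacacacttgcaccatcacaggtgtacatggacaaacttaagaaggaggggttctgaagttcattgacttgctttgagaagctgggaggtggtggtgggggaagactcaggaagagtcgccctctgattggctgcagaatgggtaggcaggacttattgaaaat

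A promoter was given for 13 of the 15 largest rises, all but Hp and Cxcl5. The C/EBP letters occurred in 8 of these 13 (61.5%), which are S100a9, Mmp3, Il6, Lcn2, Saa3, Mmp10, Ptx3 and Dio2, beside 9.55% of 27025 promoters of the same length. S100a8, Cxcl1, Cxcl2, Socs3 and Cemip did not hold them. Over the 240 risers with a promoter the share was 8.33%, so the letters were frequent among the largest rises and not among the risers as a whole. In Mmp3, Mmp10 and Il6 the window held the AP-1 letters too, which is 3 of 13 (23.1%) beside 6.87% of all promoters. Over the 240 risers the AP-1 share was 5.0%. A loose NF-kB pattern (3 G, any 5 bases, 2 C) was in 6 of the 13 (46.2%) and in 45.4% of all promoters, and STAT letters (TTCNNGGAA) were in 0 of the 13 and in 4.17% of all. The NF-kB pattern was in 61.2% of the 240 risers and in 61.9% of the 155 fallers with a promoter. Among the 15 largest falls 13 had a promoter, of which 3 held the C/EBP letters (23.1%) and 0 the AP-1 letters. These are matches of letters in a short window and carry no test.

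Calprotectin, the zinc- and manganese-binding complex of S100a8 and S100a9 that neutrophils carry in bulk, was among the largest rises. S100a9 read 3.65, 2.95 and 2.79 on the day 2 arrays and 8.83, 15.21, 9.57 and 10.95 on the day 7 arrays, replicates 1 to 4. The groups did not overlap, and replicate 2 stood more than 4 log2 units above the next. S100a9 rose from 3.13 ± 0.46 (SD, n = 3) to 11.14 ± 2.85 (SD, n = 4), a log2 change of 8.0 ± 1.13 (SE, limma adjusted p = 0.0011). Without VC- day 7 replicate 2 its log2 change was 6.65, below the 7.10 of Mmp3. The day 2 level of S100a9 lay at the floor of the arrays, so the size of the change rests on that floor. S100a8 moved with it, from 2.92 to 3.25 at day 2 to 8.13, 15.23, 9.44 and 10.46 at day 7, a log2 change of 7.73 ± 1.13 (SE, adjusted p = 0.0015). The day 0 means were 2.86 for S100a9 and 2.85 for S100a8, within 1 log2 unit of day 2.

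The other neutrophil genes were dimmer. Of 19 listed, 16 had a single-gene probe set and 7 were variable enough to be tested. Of these 7, 4 rose and 0 fell, beside 3.45% and 2.15% of all genes tested. The filter on variability keeps genes that are high at day 7, so the median log2 change of these 7 is no measure of the list. It was 4.11, beside -0.07 for all genes tested, but 2.21 over the 11 members that a filter on signal kept, and 2.78 over the 7 without VC- day 7 replicate 2. Fpr2, a receptor for bacterial formyl peptides, and Il1r2, the decoy receptor that binds interleukin-1 without signaling, rose by 4.11 and 4.22 (adjusted p = 0.0257 and 0.0417). Without VC- day 7 replicate 2 the count was 2, S100a8 and S100a9, and it was also 2 when day 7 replicate 4 or day 2 replicate 2 or 3 was left out. The granule enzymes Mpo and Elane stayed at 2.1 to 2.14 and 2.29 to 2.34 on the day 7 arrays, and Cxcr2, the receptor for CXC chemokines, read 2.72, 4.11, 2.65 and 2.67 there. Trem1, an amplifying receptor of myeloid cells, read 4.36, 7.64, 3.32 and 5.46 at day 7 against 3.27 to 3.39 at day 2 and was not in the tested set.

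The chemokines that draw neutrophils rose from the background level of the arrays. Cxcl1 read 3.56, 3.56 and 3.54 at day 2 and 8.55, 13.39, 8.41 and 9.76 at day 7, so that its lowest day 7 array was above its highest day 2 array by more than 4 log2 units. Its log2 change was 6.47 ± 0.90 (SE, adjusted p = 0.0011). Cxcl2 read 2.61, 2.67 and 2.61 and then 7.72, 13.56, 6.19 and 9.14, a change of 6.52 (adjusted p = 0.0038). Cxcl5, made mainly by epithelial cells, read 3.08 to 3.21 and then 9.75, 14.07, 4.83 and 10.72, with replicate 3 close to day 2. Its change of 6.69 (adjusted p = 0.011) was lost in 2 of the 7 fits that left out an array, with an adjusted p of up to 0.0605. These 3 were the risers among 6 tested members of the list of neutrophil chemokines and colony stimulating factors, of which 9 were measured. Over all genes tested 3.45% rose. On every day 2 array 6 of the 9 read under a log2 signal of 4. The median change of the 6 tested was 4.98, and 3.47 without VC- day 7 replicate 2. As with the neutrophil genes, the filter keeps members that are high at day 7, so this median is no measure of the list. The risers numbered 2 when day 2 replicate 2 or 3 was left out and 6 when day 7 replicate 1 was.

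Of 19 tested members of the list of other chemokines, 3 for monocytes or eosinophils rose and 0 fell (3.45% of all genes tested rose). The median was 0.42, and the fits that left out 1 of the 7 arrays gave values from 0.10, when day 2 replicate 3 was out, up to 0.69, when day 7 replicate 4 was. Ccl2, which calls monocytes, went from 3.80 to 4.17 at day 2 to 7.00, 11.31, 6.35 and 8.70 at day 7 (log2 change 4.31, adjusted p = 0.0147). Ccl8, another monocyte chemokine, was the most even of them, from 8.89, 9.52 and 9.52 to 11.22, 11.20, 11.87 and 11.78 (2.21, adjusted p = 0.0255). Ccl11, the eosinophil chemokine eotaxin, rose by 1.87 (adjusted p = 0.0406). None of the 3 rose in the fits without VC- day 2 replicate 2 or 3, and Ccl2 and Ccl8 passed without VC- day 7 replicate 2.

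**Figure D2:**
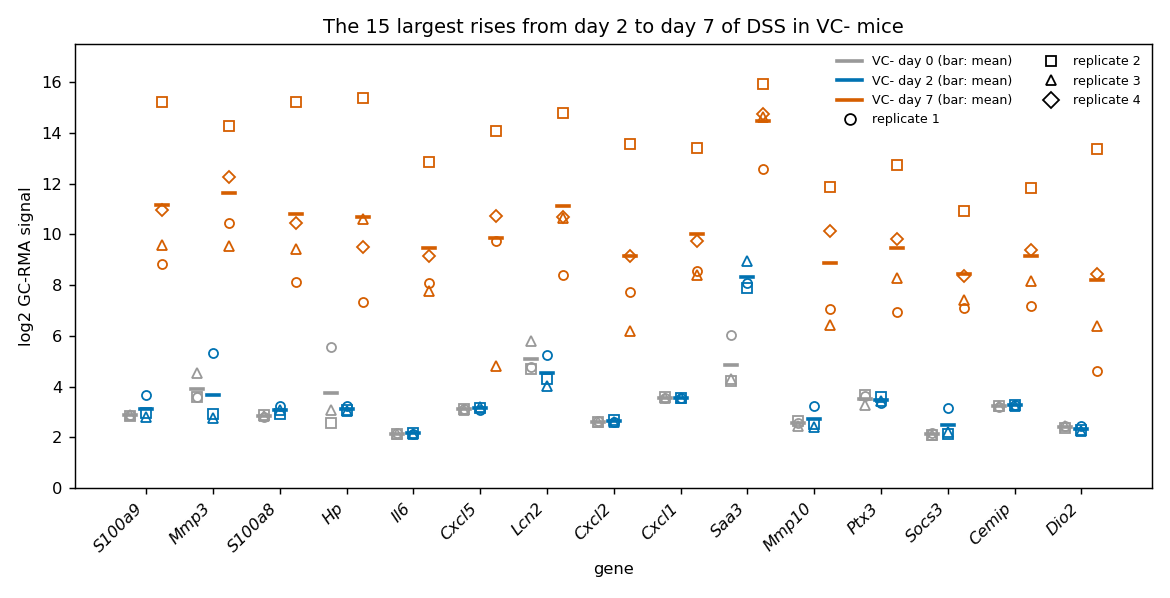
Log2 GC-RMA signal of the 15 genes with the largest rises whose day 2 and day 7 arrays did not overlap, 1 symbol for each array and a bar for the group mean, at day 0 (grey), day 2 (blue) and day 7 (orange) in VC- mice. Day 7 replicate 2 (squares) was the highest array for all 15 genes, and Saa3 was the 1 gene of the 15 with a day 2 mean more than 1 above its day 0 mean.

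Interleukin-6 rose together with members of its family and with the feedback inhibitor Socs3. Il6, the cytokine that starts the acute phase response, read 2.14, 2.18 and 2.13 at day 2 and 8.10, 12.87, 7.78 and 9.15 at day 7. It rose by 7.32 ± 0.95 on the log2 scale (SE, adjusted p = 0.00067). Socs3, the feedback inhibitor that STAT3 induces, read 3.17, 2.14 and 2.19 and then 7.11, 10.91, 7.40 and 8.35, a change of 5.95 ± 0.60 (SE, adjusted p = 5.9e-05). Stat3 itself, the transcription factor below the receptor, rose by 2.27 (adjusted p = 0.003), and Il11 and Osmr, a cytokine of the family and the oncostatin M receptor, rose by 4.64 and 2.57 (adjusted p = 0.0181 and 0.0149). In the list of this family 5 of 9 tested members rose (3.45% of all genes tested did) and 0 fell, with a median of 2.27. That median was 1.83 over the 10 members that a filter on signal kept, and 1.94 over the 9 without VC- day 7 replicate 2. Il6, Socs3 and Stat3 passed whichever of the 7 arrays was left out, whereas Osmr was lost without VC- day 2 replicate 3 and Il11 in 3 of the 7 fits.

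Interleukin-1 and NF-kB genes rose less far. Il1b, the cytokine that the inflammasome releases, read 4.39, 5.31 and 4.11 at day 2 and 8.63, 12.55, 6.83 and 11.08 at day 7, a change of 5.17 ± 0.95 (SE, adjusted p = 0.0071). The groups did not overlap, and the call was lost only without VC- day 2 replicate 3 (adjusted p = 0.0551). Il33, an alarmin released by damaged epithelium and stroma, rose by 2.60 and the signaling receptor Il1r1 by 2.36. With Il1b and Il1r2 these made 4 risers and 0 fallers of 13 tested (median 0.60), where 3.45% of all genes tested rose. Among 17 tested genes of TNF signaling and NF-kB feedback 5 rose and 0 fell (median 1.13). They were the adhesion molecule Vcam1 (2.80), the IkB family members Nfkbiz (2.26) and Nfkbia (1.96) and the receptors Tnfrsf1b (1.69) and Tnfrsf1a (1.42). Tnf itself lay at the background level and outside the tested set, at 2.36 to 2.46 at day 2 and at 2.39, 2.37, 2.36 and 3.61 at day 7. In the fit without VC- day 2 replicate 3 no member of either list passed, and in that without VC- day 7 replicate 1 the NF-kB list had 11 risers.

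Tlr4 and Cd14, which recognize lipopolysaccharide, were among 4 risers in the list of Toll-like receptor genes. Tlr4, the receptor for lipopolysaccharide, went from 6.59, 5.01 and 3.93 to 7.49, 8.38, 6.70 and 6.96, a change of 2.20 (adjusted p = 0.0248). Its partners Lbp and Cd14, which carry lipopolysaccharide to it, rose by 3.97 and 2.11 (adjusted p = 0.003 and 0.0432), and Tollip, an inhibitor of this signaling, by 0.78 (adjusted p = 0.0325). These were 4 risers and 0 fallers of 15 tested, where 3.45% of all genes tested rose. The median was 0.55, or 0.36 without VC- day 7 replicate 2, and 1 of the 4 passed without that array. Lbp passed whichever array was left out. Irak1, a kinase below these receptors, read 8.08 to 8.28 at day 2 and 8.66 to 8.99 at day 7 without passing (0.60, adjusted p = 0.0665), and another probe set of the gene gave a change of -0.15.

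Acute phase proteins are made mostly by the liver, and some of them also by injured epithelium. Saa3, the local serum amyloid A, read 8.07, 7.89 and 8.95 at day 2 and 12.58, 15.91, 14.62 and 14.73 at day 7, a change of 6.16 ± 1.05 (SE, adjusted p = 0.0038). Its day 0 mean was 4.86, so Saa3 stood higher at day 2 than at day 0 and higher again at day 7. Lcn2, which binds bacterial siderophores and so withholds iron, read 5.22, 4.30 and 4.04 and then 8.39, 14.80, 10.64 and 10.69 (6.61, adjusted p = 0.0025). Hp, haptoglobin, which binds free hemoglobin, read 3.03 to 3.23 and then 7.31, 15.36, 10.60 and 9.52 (7.59, adjusted p = 0.0039). Ptx3, a pattern recognition molecule, rose by 5.99, the glycoprotein Lrg1 by 5.64 and the copper ferroxidase Cp by 4.54 (adjusted p = 0.0015, 0.0019 and 0.0263).

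In the acute phase and complement list 8 of 18 tested members rose and 0 fell, where 3.45% of all genes tested rose. All 18 had a positive change, and the median was 1.43. The filter on variability left out the rest of the 23 members measured. The number that rose was 6 when day 2 replicate 2, day 2 replicate 3 or day 7 replicate 2 was left out, and 5 when both day 7 replicates 2 and 4 were. Iron genes overlapped with that list through Hp, Lcn2 and Cp, and 6 of 13 rose with 0 falling, or 3 when day 7 replicate 2 or day 2 replicate 2 or 3 was left out. The others were Steap4, a metalloreductase that inflammation induces (3.39, adjusted p = 0.0011), Hmox1, heme oxygenase (2.86, adjusted p = 0.049), and the iron importer Slc11a2 (1.32, adjusted p = 0.0225). Steap4 read 7.41, 8.31 and 7.19 at day 2 and 9.88, 12.43, 10.54 and 11.26 at day 7 and passed without any single array.

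Matrix-cutting enzymes were also among the largest rises. Mmp3, stromelysin-1, which activates other metalloproteinases, read 5.31, 2.91 and 2.74 at day 2 and 10.46, 14.27, 9.56 and 12.26 at day 7. It rose by 7.98 ± 0.98 on the log2 scale (SE, adjusted p = 0.00066). Mmp10, stromelysin-2, its neighbour in the cluster on chromosome 9, read 3.22, 2.53 and 2.39 and then 7.06, 11.86, 6.41 and 10.14 (6.15, adjusted p = 0.005). Adamts4, which cleaves proteoglycans, and Timp1, the secreted inhibitor of these proteases, rose by 5.69 and 5.04 (adjusted p = 0.0025 and 0.00067). These 4 passed whichever array was left out. With Mmp13, Adamts9 and Mmp2 they made 7 risers and 0 fallers of 18 tested (3.45% of all genes tested rose), with a median of 2.57. The number was 5 when day 2 replicate 2 or 3 or day 7 replicate 2 or 4 was left out, and 15 when day 7 replicate 1 was. Cemip, a hyaluronan-degrading protein, rose by 5.88 from 3.23 to 3.29 at day 2 to 7.18 to 11.84 at day 7 (adjusted p = 0.0019).

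Collagens and other matrix proteins formed the longest list of risers, 12 of 33 tested with 0 fallers, where 3.45% of all genes tested rose. The list had 32 positive changes and a median of 1.75. Col18a1, a basement membrane collagen, read 6.79, 6.32 and 6.13 at day 2 and 8.55, 12.66, 9.97 and 9.99 at day 7 (3.88, adjusted p = 0.0025). Vcan, the proteoglycan versican, read 4.94, 5.42 and 5.81 and then 7.34, 10.87, 8.47 and 8.86 (3.5, adjusted p = 0.0051). Lox, which crosslinks collagen, and Thbs1, thrombospondin-1, rose by 4.67 and 3.82 (adjusted p = 0.0332 and 0.02). Both fibrillar and basement membrane collagens were among the risers, with Col1a1 and Col5a1 at 2.15 and 3.30 and Col4a1 and Col4a2 at 2.63 and 2.48. The count was 4 with day 7 replicate 2 left out, 2 with day 2 replicate 2 or 3 left out and 28 with day 7 replicate 1 left out. Endothelial genes gave 2 risers of 14 (median 1.61, or 1.03 without VC- day 7 replicate 2), the adhesion molecule Selp (4.82) and the receptor Tie1 (1.81), of which 1 passed without replicate 2.

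Macrophage genes moved by smaller steps. Of 25 tested members all had a positive change, and 6 rose and 0 fell, where 3.45% of all genes tested rose. The median of the 25 was 1.64 (1.09 without VC- day 7 replicate 2). Msr1, a scavenger receptor, read 6.54, 6.29 and 6.20 at day 2 and 7.19, 9.67, 8.35 and 9.03 at day 7 (2.22, adjusted p = 0.0143). Cd163, the receptor for haptoglobin bound to hemoglobin, rose by 2.71, the lysosomal glycoprotein Cd68 by 2.46, Cd14 by 2.11 and the complement subunits C1qc and C1qb by 1.84 and 1.67. Day 7 replicate 1 overlapped with day 2 for Cd68 and Cd163, at 6.66 against 6.05 to 7.17 and at 7.93 against 7.95 to 7.99. Csf1r and Adgre1, which define macrophages, changed by 0.71 and 0.30 without passing (adjusted p = 0.24 and 0.49). The mean of the list over arrays, relative to the mean of the 22 arrays, was -0.54 to -0.18 at day 2 and -0.24, 2.34, 0.84 and 1.17 at day 7. No member passed when day 2 replicate 2 or 3 was left out, 1 passed when day 7 replicate 2 or 4 was, 2 when day 7 replicate 3 was, and 19 when day 7 replicate 1 was. With the probe set of the highest mean 2 of 24 tested members rose (median 1.40). A filter on signal in place of variability gave 2 of 25.

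Lysosome genes, which share Cd68 with that list, showed 8 risers and 0 fallers of 58 tested. Over all genes tested 3.45% rose, and the median of the lysosome list was 0.49. The aspartic protease Ctsd rose by 1.37, from 9.21 to 9.82 at day 2 to 9.73, 11.72, 10.86 and 11.05 at day 7 (adjusted p = 0.025). The legumain protease Lgmn and the membrane protein Laptm5 rose by 2.16 and 2.12 (adjusted p = 0.0288 and 0.0329). The main membrane proteins of the lysosome, Lamp1 and Lamp2, changed by 0.51 and 0.40 without passing (adjusted p = 0.0878 and 0.37). No lysosome gene passed when replicate 2 or 4 of day 7 or replicate 2 or 3 of day 2 was left out, and 24 rose without VC- day 7 replicate 1.

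Repair and stress signals were also among the risers. Ereg, epiregulin, a growth factor for the EGF receptor, rose by 3.45, from 10.59, 9.42 and 9.21 to 11.58, 14.37, 13.35 and 13.44 (adjusted p = 0.0163), and the receptor Egfr by 1.23 (adjusted p = 0.0377). Ptgs2, the inducible cyclooxygenase that makes prostaglandins, rose by 3.01 (adjusted p = 0.031). The glycolytic regulators Pfkfb3 and Pfkp and the vasodilator peptide Adm rose by 2.70, 1.61 and 2.79, 3 of 24 tested genes of glycolysis and the hypoxia response. When day 2 replicate 2 or 3 was left out, none of these and neither Ereg nor Egfr passed. Nfil3, a transcription factor that interleukins induce, read 6.14, 3.93 and 2.51 and then 6.66, 10.19, 8.40 and 8.37, a change of 4.21 (adjusted p = 0.003) that held without any single array. Ifitm3 and Ifitm1, antiviral membrane proteins, rose by 1.70 and 2.51. They were the 2 risers, beside 0 fallers, among 31 tested members of the interferon response list (3.45% of all genes tested rose). The median of that list was -0.91, but -0.61 when day 2 replicate 3 was left out, -0.34 without VC- day 7 replicate 2 and -0.25, with 0 called, when replicate 4 was left out too. Dio2, which converts thyroxine to its active form, rose by 5.87, from 2.26 to 2.45 to 4.61, 13.36, 6.39 and 8.45 (adjusted p = 0.0329), a call lost in 4 of 7 fits.

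**Figure D3:**
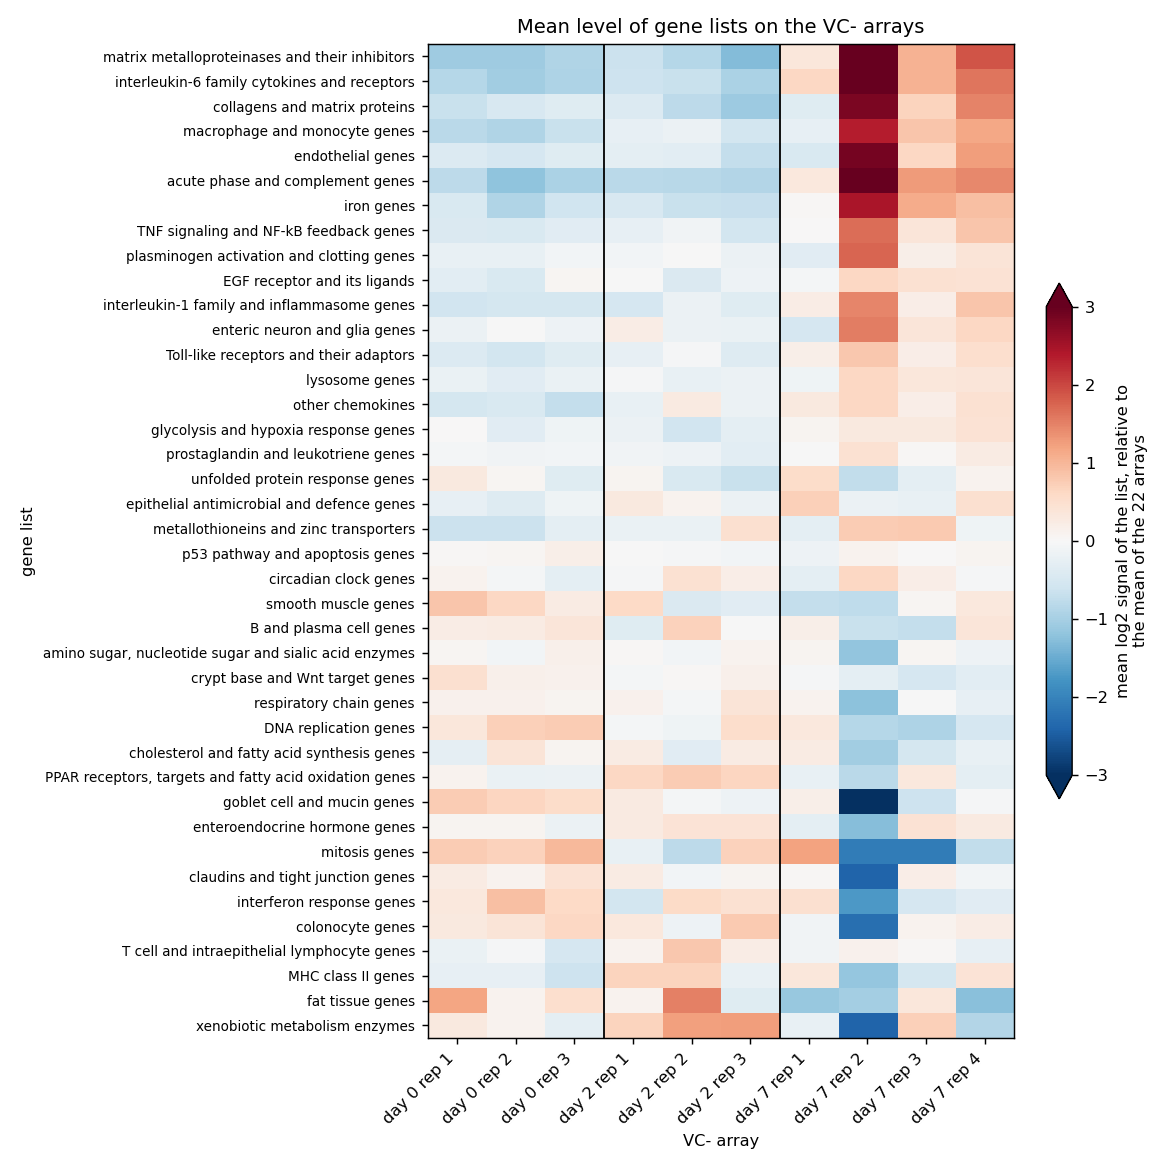
Mean log2 signal of each gene list with 9 or more tested members on the 10 VC- arrays, relative to the mean of the 22 arrays, ordered by the median change from day 2 to day 7 and coloured from blue (low) to red (high), with the colours ending at -3 and 3. In the macrophage list day 7 replicate 2 stood at 2.34 and replicate 1 at -0.24, within the range of the day 2 arrays, and in the mitosis list replicate 1 was the highest array of days 2 and 7 at 1.21.

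The largest fall was that of Acaa1b, a peroxisomal thiolase that completes a round of fatty acid oxidation and a classic target of PPAR α. Acaa1b read 8.02, 10.74 and 9.03 on the day 2 arrays and 3.41, 2.93, 2.45 and 2.57 at day 7, and its day 0 mean was 2.58 ± 0.08 (SD, n = 3). The gene was therefore bright at day 2 and at the background level at days 0 and 7, with no overlap between days 2 and 7. It fell by 6.42 ± 1.11 on the log2 scale (SE, adjusted p = 0.0039), a size that rests on the floor of the arrays at day 7. Fabp1, the liver-type fatty acid binding protein, had the same course, at 4.34 on average at day 0, at 7.00, 7.81 and 5.52 at day 2, and at 4.24, 4.01, 5.07 and 4.04 at day 7. It fell by 2.43 ± 0.41 (SE, adjusted p = 0.0034). Slc16a9, a carrier of the monocarboxylate transporter family that moves carnitine, fell by 3.17 ± 0.49 (SE, adjusted p = 0.002), from 8.19, 7.19 and 8.66 to 4.74, 4.53, 5.30 and 4.78, with 5.16 as its day 0 mean. On these 3 genes day 7 replicate 2 lay with the other day 7 arrays, and all 3 passed whichever of the 7 arrays was left out. The day 0 and day 2 arrays also differed in Hoxb13, and its part in the day 0 to day 2 differences of these genes was not tested.

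PPAR receptors, their targets and fatty acid oxidation genes gave 7 fallers and 0 risers of 34 tested, where 2.15% of all genes tested fell. The median was -0.65, and -0.39 without VC- day 7 replicate 2. Besides Acaa1b and Fabp1 these were the peroxisomal enzymes Ehhadh, which fell by 2.02, and Acaa1a, which fell by 1.14, Cpt1a, the gate of mitochondrial fat import, which fell by 1.16, and the fatty acid activating proteins Slc27a2 and Acsl3, which fell by 1.65 and 1.72. Ehhadh read 9.64, 9.67 and 9.83 at day 2 and 8.28, 6.06, 8.89 and 7.56 at day 7 (adjusted p = 0.0437). The number that fell was 0 without both day 7 replicates 2 and 4, 2 with Xist as a covariate or when day 7 replicate 2 or day 2 replicate 2 or 3 was left out, 4 when day 7 replicate 4 was, and 12 when day 7 replicate 1 was. Pparg, the gene of PPAR γ, did not pass, at 9.87, 10.25 and 10.96 and then 9.82, 7.39, 8.38 and 8.57 (-1.82 ± 0.79 SE, adjusted p = 0.14). Its targets Fabp2, the intestinal fatty acid binding protein, and Plin2, a coat protein of lipid droplets, changed by -2.94 and 0.52 without passing (adjusted p = 0.0596 and 0.24).

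Among enzymes that conjugate and oxidize drugs, steroids and plant compounds, 4 of 32 tested fell and 0 rose (2.15% of all genes tested fell). The falls numbered 0 when Xist was a covariate or when day 7 replicates 2 and 4 were left out. In this xenobiotic metabolism list 31 members had a negative change, 10 had all day 7 arrays below all day 2 arrays (7.71% over all genes tested), and the median was -1.73 (-1.22 without VC- day 7 replicate 2). Sult1a1, a phenol sulfotransferase, read 13.92, 13.80 and 14.71 at day 2 and 12.40, 8.90, 11.99 and 10.34 at day 7, and it fell by 3.24 ± 0.71 (SE, adjusted p = 0.0181). The epoxide hydrolases Ephx1 and Ephx2 fell by 1.11 and 2.03 (adjusted p = 0.0139 and 0.0446). Gstt1, a glutathione transferase, fell by 1.27 (adjusted p = 0.0155). Ephx1 was even across the day 7 arrays, at 6.89, 7.01, 6.92 and 7.22 against 7.98, 8.54 and 7.83, and its log2 change was -1.11 without replicate 2 as well. Without replicate 2 of day 7 there were 3 fallers in the list, without day 2 replicate 2 there were 0, without day 2 replicate 3 there was 1, and without day 7 replicate 1 there were 10. Genes of the proximal colon had a median of -2.63 (-1.42 without VC- day 7 replicate 2) with 0 of 5 tested called, and small intestine genes -1.55 (-2.34 without day 7 replicate 3) with 1 faller of 5, Fabp1, and the part of position along the gut in these falls was not tested. Outside the xenobiotic list, the glucuronosyltransferase Ugt2b36 and the cytochrome Cyp3a44 fell by 2.97 and 2.91 (adjusted p = 0.0413 and 0.0329), the latter from 6.51, 10.14 and 6.18 to 4.40 to 4.97.

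**Figure D4:**
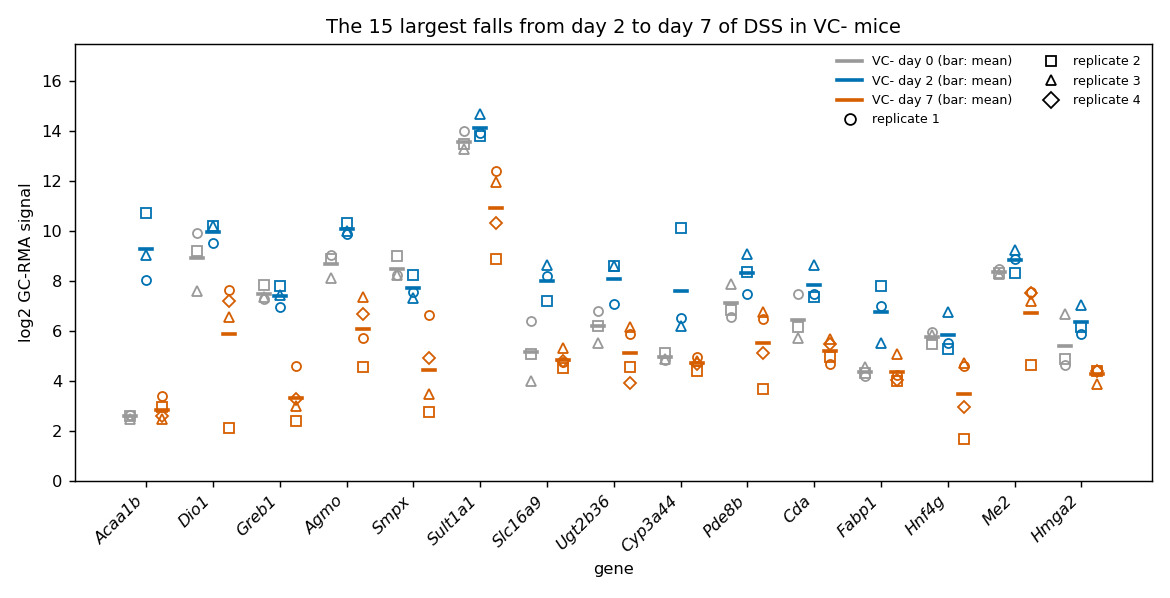
Log2 GC-RMA signal of the 15 genes with the largest falls whose day 2 and day 7 arrays did not overlap, drawn as in the plot of the rises, with 1 symbol for each array and a bar for the group mean at day 0 (grey), day 2 (blue) and day 7 (orange). For 9 of the 15 genes the day 2 mean was more than 1 above the day 0 mean, as for Acaa1b with 2.58 at day 0 and 9.26 at day 2.

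The other large falls belonged to several functions. Greb1, a coactivator known from estrogen receptor signaling, read 6.94, 7.81 and 7.46 at day 2, much as at day 0 (7.49), and 4.58, 2.39, 2.99 and 3.28 at day 7 (fell by 4.09, adjusted p = 0.02). Agmo, which cleaves ether lipids, read 9.89, 10.33 and 10.02 and then 5.73, 4.55, 7.36 and 6.67 (fell by 4.00, adjusted p = 0.0155). Dio1, the deiodinase that also clears thyroid hormone, fell by 4.12 while Dio2 rose, with 9.54, 10.20 and 10.21 at day 2 and 7.64, 2.09, 6.55 and 7.19 at day 7 (adjusted p = 0.049). Smpx, a small protein of muscle, the phosphodiesterase Pde8b, the cytidine deaminase Cda, the epithelial transcription factor Hnf4g, the malic enzyme Me2 and the chromatin protein Hmga2 fell by 3.28, 2.80, 2.64, 2.36, 2.11 and 2.08. Of the 15 largest falls 6 passed without VC- day 7 replicate 2, which was the lowest day 7 array for 11 of them, and 12 of the 15 were lost in at least 1 of the 7 fits that left out an array. Of the 15 largest rises 14 passed without it, all but Dio2, with log2 changes of 4.15 to 7.10.

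Epithelial lists had negative medians and few calls, where 2.15% of all genes tested fell and 3.45% rose. Colonocyte genes had a median of -0.92 with 0 of 32 tested called, and goblet cell and mucin genes had -0.70 with 0 risers and 1 faller of 27, A4gnt, which caps mucin sugars (fell by 4.27, adjusted p = 0.0464). A4gnt read 7.05, 8.13 and 8.60 at day 2 and 7.09, 1.84, 2.85 and 2.83 at day 7, so that replicate 1 stayed at the day 2 level. Without VC- day 7 replicate 2 the medians of these lists were -0.29 and -0.11 with 0 called, and on that array the goblet list stood at -3.17 against -0.62 to 0.18 on the other day 7 arrays. Claudins and tight junction genes had a median of -0.88 and 1 faller of 18, Cldn15, which forms sodium pores (fell by 2.39, adjusted p = 0.049), and the median was -0.01 without replicate 2. T cell genes included 2 fallers of 9 tested, Itgae, the integrin of intraepithelial lymphocytes, and Cd3g of the T cell receptor complex. Itgae went from 7.35, 9.06 and 8.01 to 7.09, 5.81, 6.56 and 6.54 (fell by 1.64, adjusted p = 0.0139). Cd3g read 3.48, 6.49 and 5.39 and then 3.23, 3.22, 3.23 and 2.91, a fall of 1.97 (adjusted p = 0.0406) in which day 2 replicate 1 lay near day 7. Neither passed when day 2 replicate 2 or 3 was left out, and Itgae passed without day 7 replicate 2.

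Cell cycle genes showed a split among the day 7 arrays. The mean of the mitosis list, relative to the mean of the 22 arrays, was -0.22, -0.79 and 0.70 at day 2 and 1.21, -2.10, -2.10 and -0.74 at day 7, so that replicate 1 was the highest of these arrays and replicates 2 and 3 the lowest. No mitosis gene of 38 passed, with a median of -0.82 that ranged from -1.53 without VC- day 7 replicate 1 to -0.36 without day 2 replicate 3, and 17 fell in the fit without VC- day 7 replicate 1. Of 42 DNA replication genes 2 fell and 0 rose, beside 2.15% and 3.45% of all genes tested. Their median was -0.56 (-0.88 without day 7 replicate 1 and -0.35 without day 2 replicate 3). The 2 fallers were Rfc4, a subunit of the clamp loader, and Rpa3, of the single-strand binding complex. Rfc4 and Rpa3 fell by 1.74 and 1.13 (adjusted p = 0.0482 and 0.0456), and 13 genes of the list fell without day 7 replicate 1. Enzymes of amino sugar and sialic acid metabolism gave 3 fallers and 1 riser of 33 (median -0.45, or -0.11 without VC- day 7 replicate 2). The fucose kinase Fcsk, the sialic acid phosphatase Nanp and the sugar mutase Pgm1 fell by 1.80, 1.27 and 0.70, whereas Npl, which breaks sialic acid down, rose by 1.86. Of these 4, Fcsk passed without VC- day 7 replicate 2, and none passed when day 7 replicate 4 or day 2 replicate 2 or 3 was left out.

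The same interval was measured on other arrays in VC+ mice, where 433 genes rose (4.76%) and 257 fell (2.83%). In both genotypes 109 genes were called, which is 21.4% of the 510 of VC- mice and 15.8% of the 690 of VC+ mice (7.58% of all tested), with 87 rises and 21 falls in common and Rfc4 in opposite directions. All 15 of the largest rises of VC- mice also rose in VC+ mice, among them S100a9 by 8.87, Il6 by 7.64, Saa3 by 7.79 and Mmp3 by 4.92. Of the 15 largest falls 1 also fell in VC+ mice, Smpx. Acaa1b changed by 2.25 in VC+ mice (adjusted p = 0.17), Slc16a9 by -0.24, Fabp1 by 0.22, Greb1 by 0.05 and Agmo by 0.68. The median change of the VC- risers was 0.66 in VC+ mice and that of the fallers was -0.33. Both sets, like the 15 largest falls, were picked by their change in VC- mice. Such a choice tends to give smaller changes on other arrays, so these values do not measure a weaker change in VC+ mice.

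The difference between the genotypes in their change was tested as an interaction by limma, and 0 of 9097 genes passed (0.0%), while 1555 had an unadjusted p under 0.05 (17.1%). The lowest adjusted p was that of Acaa1b, 0.11 for a difference of -8.67, and those of Greb1, Agmo, Slc16a9, Fabp1, Vcan and Rfc4 were 0.17 each. Leaving out VC- day 7 replicate 1 gave 620 genes and leaving out VC+ day 7 replicate 3 gave 121. Over all genes tested 4.76% rose and 2.83% fell in VC+ mice, beside 3.45% and 2.15% in VC- mice. Collagens and matrix proteins had 0 risers and 3 fallers in VC+ mice (median -0.17) beside 12 and 0 in VC- mice (median 1.75). DNA replication genes had 25 risers and 0 fallers there (median 1.22) beside 0 and 2 here (median -0.56), and mitosis genes 10 and 0 (median 1.79) beside 0 and 0. Smooth muscle genes had 0 risers and 14 fallers in VC+ mice and 0 and 1 in VC- mice, the 1 being Smpx. The VC+ arrays differed in Hoxb13, Xist and Prss2 too. Hoxb13 read 12.42, 3.07, 9.45, 10.44 and 11.19 at VC+ day 2 and 3.10, 3.31, 3.07 and 6.88 at VC+ day 7. Xist was at 11.87 and 11.90 on VC+ day 2 replicates 4 and 5 and at 2.06 to 2.08 on the other VC+ arrays of these days. Prss2 read 11.20 on VC+ day 7 replicate 4. The part of these properties in the differences between genotypes was not tested beyond the fits given at the end.

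**Figure D5:**
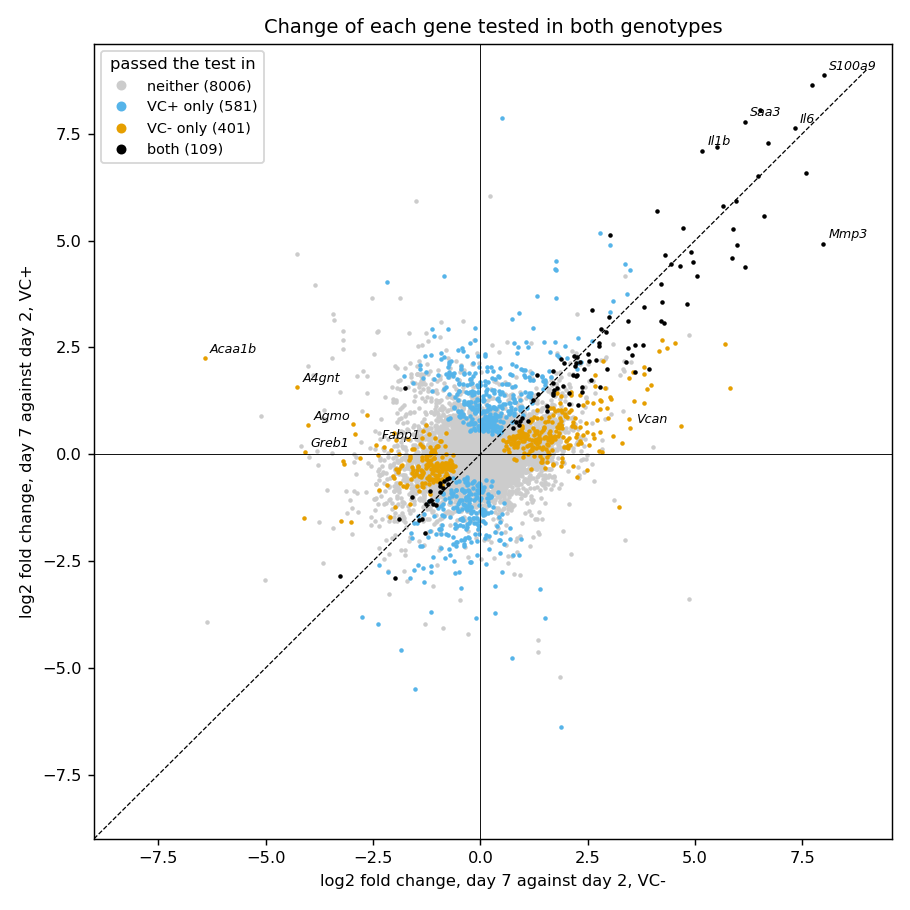
Log2 fold change from day 2 to day 7 of each of the 9097 genes tested, in VC- mice on the horizontal axis and in VC+ mice on the vertical axis, with the dashed line marking equal change and colours the genotype in which the gene passed the test. The 109 genes called in both (black) lie mostly at the upper right, with S100a9 at 8.0 and 8.87, and Acaa1b lies at -6.42 and 2.25.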

How the data were processed

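The authors hybridized RNA of homogenized colon to Affymetrix mouse expression arrays and, per the labels' processing notes, normalized the arrays with GCRMA in R 2.10.1. The deposited values are log2 signals of 45101 probe sets on 22 arrays. They hold no counts, and the number of arrays limits the precision. Of these probe sets 34958 carry 1 gene symbol, 932 carry several and 9211 are not in the annotation used. Where a gene had several, its most variable probe set (by interquartile range over the 22 arrays) stood for it, which left 18194 genes, and the more variable 50% of these, 9097, were tested. Limma 3.58.1 in R 4.3.3 fitted 6 group means to all 22 arrays with empirical Bayes moderation, and two-sided p-values were adjusted by Benjamini-Hochberg over the 9097 genes with a threshold of 0.05. The fitting script was tested on simulated data. GC-RMA pulls dim probe sets to a common floor (41.7% of all values lie under a log2 signal of 3), and 53 of the 314 risers had a day 2 mean under 4 and 18 of the 196 fallers a day 7 mean under 4, so that the sizes of these changes rest on that floor. The groups come from the labels. VC- day 0 values are given side by side, since comparisons with day 0 would share arrays with this contrast.

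The named genes are the 15 largest rises and the 15 largest falls among called genes whose day 2 and day 7 arrays do not overlap, up to 4 called members of each of 50 gene lists by size of change, the genes that the study singles out, and Prss2, Xist and Hoxb13 as properties of the arrays. Stat3, Lrg1, Tnfrsf1a, Adamts9, Mmp2, Mmp13, C1qb, C1qc, the named collagens, Hmox1, Slc11a2, Acaa1a, Cpt1a, Slc27a2 and the marker genes Vil1, Muc2, Myh11, Mpo, Elane, Cxcr2, Trem1, Csf1r and Adgre1 fall outside that rule and were picked with their values known. The genes and lists were chosen with earlier results of these data known. Lists are described by counts and medians with no test. The filter on variability can keep members through the day at which they are high, so a median over tested members does not measure a whole list. Alternatives covered the arrays in the fit, the filters, the choice of probe set, the normalization, array weights, covariates for Xist and Hoxb13, a replicate block, and each array left out. Promoters are the 250 bases before the start site in RefSeq's GRCm38.p6 table, searched on both strands. Figures were drawn with matplotlib 3.10.9.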

Additional observations from a re-analysis of the deposited data

Results flagged for a closer look

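Among the 105 named genes, 9 had a VC- day 7 array that lay far from the other 3 by Dixon's test for 4 arrays. Prss2 and Hoxb13, both among the 9, were named because single arrays stood apart on them. Most of the other named genes were picked by their change at day 7, and all share the same 4 arrays. The rate of about 1 gene in 20 that chance marks among independent genes is therefore no yardstick for the 9. Replicate 2 was the distant array for 4 genes, with a high Prss2 at 14.74 and Nfkbiz at 10.14 and a low Ephx2 at 4.33 and Me2 at 4.62. Replicate 3 was low for Hmga2 at 3.87 and for Tnfrsf1b at 7.41. Replicate 4 was high for Hoxb13 at 9.62 and for Tnf at 3.61, and low for Cd3g at 2.91. Replicate 2 was also the highest day 7 array for 256 of the 314 risers, and replicate 1 was the lowest for 226 of them. The part of pancreatic RNA or of position along the colon in these values was not tested.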

How the results depend on the processing

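The rises and falls of VC- mice numbered 314 and 196, the changes of VC+ mice 690 and the differences between genotypes 0. A fit of the 7 arrays alone gave 0 rises and 0 falls, and a fit of the 10 VC- arrays gave 13 and 4. Without a variance filter the falls were 939 and the VC+ changes 462. Array weights gave 541, 298, 2645 and 1474 for the 4 results. The replicate block gave 79 and 26 and 333 VC+ changes. VC- day 2 and day 7 arrays with the same number correlated at 0.07, 0.18 and 0.12 in their deviations from the group means. Those with different numbers correlated at -0.25 to 0.20. The ranges overlap and the labels state no pairing, so whether the numbers pair the arrays cannot be told. Xist as a covariate gave 44 and 16 with 459 in VC+ mice, and Hoxb13 gave 180 and 100 with 256. Without the Prss2 arrays the counts were 193 and 107 with 2 differences. Without VC- day 7 replicates 2 and 4, a setting chosen after seeing the data, they were 30 and 4 with 1211 in VC+ mice. Leaving out single arrays gave 39 to 1191 rises, 11 to 930 falls, 187 to 1246 VC+ changes and 0 to 620 differences. Quantile normalization (298 and 210), median centring (325 and 147), a signal filter (290 and 174), and trend and robust moderation (321 and 196) stayed within 1.5 times, and the probe set with the highest mean gave 214 and 135. No called gene among the 95 named reversed its direction. Of the 510 calls 60 were also made with the Xist covariate, 272 with the Hoxb13 covariate and 104 with the block. Among genes not called, Irak1 turned to -0.15 with the probe set of the highest mean and Xist to 0.027 with Xist as a covariate, which that covariate removes by construction. The cause of the other moves was not tested.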
